A study of Mus musculus with 768 samples.

Results

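The Myc, Max and Mxd network is a group of 10 transcription factor genes, and they are described here across 4 states of mouse Schwann cells, the glia of peripheral nerve, taken from sciatic nerve at postnatal day 5 (P5). The members were Myc, Mycn and Mycl, the shared partner Max, the repressors Mxd1, Mxd3, Mxd4, Mxi1 and Mnt, and the further partner Mlx. They were matched by gene identifier among the 25700 genes of the table, and 10 of 10 were found. The states were chosen by measured reads of the same wells, from 12 genes that are not members. A well was called cycling where at least 3 of 10 cell cycle genes (Mki67, Top2a, Cdk1, Birc5, Ccnb1, Ccna2, Aurkb, Ube2c, Tpx2 and Cenpf) had 5 or more reads. Of the other wells, those under 10 CPM (counts scaled to library size) of Ncmap, a gene of myelinating Schwann cells, were called immature. The rest were called intermediate under 30000 CPM of Pmp22, a gene of compact myelin, and myelinating from there on. Because a state is a range cut from the data, each comparison says how a member moved with those 12 genes.

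The donors carried 3 alleles, a Cre transgene of the Schwann cell lineage in 1 copy, ReYFP Tg/+ and, to label all cells, βAct-DsRed Tg/+, on a C57bl/6J background. Cre switches on yellow fluorescent protein, and an actin promoter with a viral enhancer drives DsRed, so that all states share the same 3 transgenes. Single yellow fluorescent cells were collected on 2 plates with 384 positions each, and Smart-Seq2, which covers whole transcripts but keeps neither strand nor molecular identifiers, gave their RNA. Each plate pooled male and female pups and was labelled as an independent biological sample, so n = 2 in every test and wells are not replicates.

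Myc proteins bind DNA as dimers with Max, at a short sequence called the E-box, and raise the transcription of genes for ribosomes, metabolism and growth. The Mxd proteins and Mnt also pair with Max, occupy the same sequence and bring in Sin3 and histone deacetylases, which silence it. Mlx pairs with some of the same repressors and with the Mondo proteins Mlxip and Mlxipl, which respond to sugar metabolites. In many tissues Myc is high in growing progenitors, Mxd1, Mxd4 and Mxi1 are known from cells that leave the cell cycle, and Mxd3 is known from dividing progenitors.

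Because these factors read the E-box, the promoters of the members themselves were searched for it, in RefSeq sequence of GRCm38.p6 from 250 bases before to 50 bases after each gene start. Of the 10 members 9 had an entry, with 11 promoters. Myc had none, so its promoter was not searched and nothing is said of its motifs. The letters CACGTG, which read the same on both strands, were present in 4 of the 9, Mxd4, Mnt, Mlx and Max, and in 7.15% of all 32851 promoters. The windows below are given 5′ to 3′ on the strand of the gene with the motif in capitals.
Mxd4 E-box, chr5:34187913-34187940, minus strand: ggctgggccacCACGTGctgttgctaag
Mnt E-box, chr11:74830790-74830817, plus strand: cccacccaagcCACGTGtgcgcgcgcgg
Mlx E-box, chr11:101087239-101087266, plus strand: gtgggttggatCACGTGactgagcctcg
Max E-box, chr12:76962235-76962262, minus strand: gtgagcccggtCACGTGttagggggccg
The motif began 219 bases before the start in Mxd4, 123 in Mnt, 40 in Mlx and 3 in Max. Among the promoters of lists of known Myc targets, 29.2% of 24 promoters of nucleolar genes and 32.3% of 31 promoters of growth and metabolism genes held it.

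Of the 9 members searched, only Mycn held a binding sequence of E2F, the factor family that times S phase genes. Searched on both strands, TTTGGCGC was present in 0.514% of all promoters and occurred at 2 places in that of Mycn. Both are shown here because no other member searched had this sequence.
Mycn distal E2F, chr12:12942001-12942030, minus strand: agcaaatggctTTTGGCGCgaaaggctttg
Mycn proximal E2F, chr12:12941986-12942015, minus strand: gcgcgaaaggcTTTGGCGCctcccctgatt
The windows overlap, and the motifs began 183 and 168 bases before the start. The E2F variant TTTCCCGC was in none of the 9 members searched and in 1.07% of all promoters. TTTGAA, a sequence of cell cycle promoters, was in Mycn and in 17.9% of all promoters. A match is a description of these letters and not a site of binding.

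Of the 768 wells, 655 had at least 1500 detected genes and were not corner wells, 325 on replicate 1 and 330 on replicate 2. In replicate 1 and replicate 2 respectively, 32 and 25 wells were cycling, 106 and 122 immature, 79 and 70 intermediate, and 108 and 113 myelinating. Wells held 3306 to 2495101 reads, and the 8 sums of reads per state and replicate held 13925435 to 98479212. The median well was deeper among myelinating wells (819461 and 719230 reads) than in the other states (418998 to 598527). The labels were checked on lists of markers. The 6 genes of all Schwann cells, Sox10 among them, were above 0 in every sum, and at least 3 of them had 5 or more reads in all but 3 of the 655 wells. Genes of endothelial, immune, vascular smooth muscle, neuronal and skeletal muscle cells summed to at most 66.3 CPM per list in any sum. Fibroblast genes summed to 2415 and 3512 CPM in cycling, 2251 and 2519 in immature, 1138 and 883 in intermediate and 283 and 303 in myelinating wells, almost all from Col1a1 and Col3a1, and their part in the results was not tested. Cell cycle genes not used in the rule summed to 3711 and 3914 CPM in cycling wells and to 84.7 to 337 CPM elsewhere. Myelin genes not used in the rule summed to 34151 and 38584 CPM in myelinating wells, 12418 and 13337 in intermediate, and 2264 to 3615 in immature and cycling wells. At the borders, 4 cycling wells had exactly 3 cell cycle genes and 21 others exactly 2, Ncmap was at most 7.92 CPM in immature and at least 11.4 in the later states, and Pmp22 reached 29896 CPM below and began at 30776 above its limit.

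Counts scaled to library size and exon length (RPKM), which allow levels of different genes to be set side by side, put Mxd3 first in cycling and immature wells and Mxd4 first in intermediate and myelinating wells. The levels of Mxd3, Mxd4, Mlx and Mxi1 may include reads of overlapping genes, as described below. In cycling wells Mxd3 stood at 247 ± 69.3 RPKM (SD, n = 2), followed by Mlx at 20.2 ± 12.1 and Myc at 11.4 ± 3.04. In immature wells Mxd3 (29.5 ± 5.35), Myc (23.1 ± 4.83), Mlx (22.3 ± 1.3) and Mxd4 (16.9 ± 0.492) followed in that order. The replicates of Myc overlapped with those of Mxd3 and of Mlx, while those of Mxd3 and Mlx did not overlap. In intermediate wells Mxd4 (32.9 ± 2.77), Mlx (31.1 ± 3.49) and Mxd3 (28.7 ± 4.13) came first, within their spread of each other. In myelinating wells Mxd4 (27.1 ± 0.511) came before Mxd3 (22.7 ± 0.359), Mlx (12.3 ± 2.64), Mxi1 (6.75 ± 0.354) and Mycn (4.68 ± 0.805), and Myc was at 2.53 ± 0.197. Max, the partner that Myc and Mxd share, was at 2.04 to 3.4 RPKM in the 4 states, and Mxd1, Mnt and Mycl were under 4 in each.

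**Figure D1:**
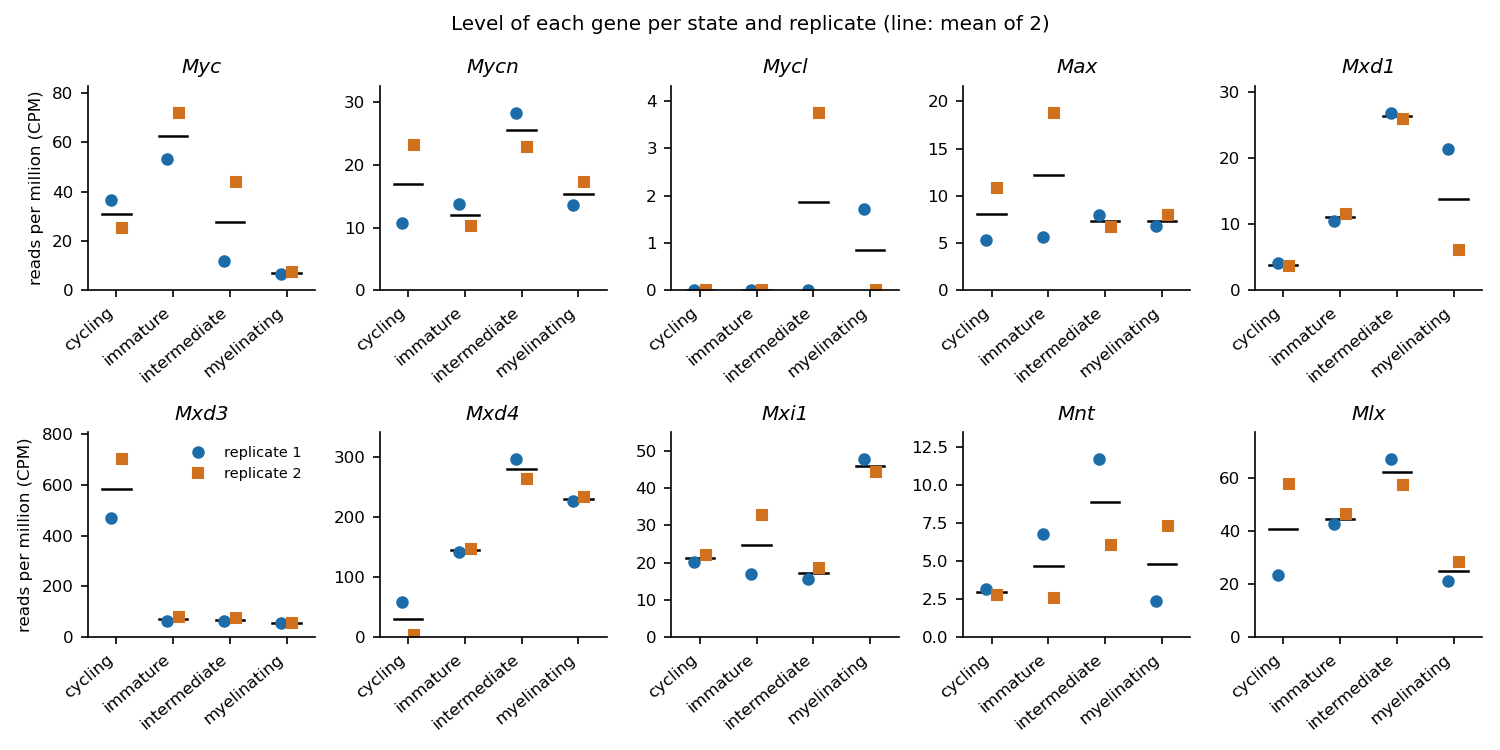
Level of each of the 10 genes in CPM (vertical axis, from 0) in the 4 states, with 1 point per replicate and a line at their mean. Mxd3 stood apart in cycling wells at 470 and 702 CPM, Myc was lowest in myelinating wells at 6.49 and 7.24 CPM, and Mxd4 was lowest in cycling wells.

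Tests of the 13892 genes that passed a filter on low counts used edgeR's quasi-likelihood test on the 8 sums with Benjamini-Hochberg adjustment, and a gene is called where the adjusted p is under 0.05. The 10 members passed the filter. Mycl passed it through reads of a few wells and is given below by its reads, so 9 members have a fold change. In cycling against immature wells 1 of the 9 was called, Mxd3, and it was higher. Of all genes tested 2.46% were called, 1.21% as higher and 1.25% as lower. In intermediate against immature wells none of the 9 was called by edgeR or DESeq2 and none had an unadjusted p under 0.05, while 1.95% of all genes were called, 0.965% as higher and 0.986% as lower. In myelinating against intermediate wells edgeR called none of the 9, although 2 had an unadjusted p under 0.05 and DESeq2 called 1, and 0.77% of all genes were called, 0.346% as higher and 0.425% as lower. In myelinating against immature wells 1 of the 9 was called, Myc, and it was lower, while 5.1% of all genes were called, 2.58% as higher and 2.51% as lower. In the same order of comparisons 15.3%, 10.9%, 9.32% and 16.3% of all genes tested had an unadjusted p under 0.05 in edgeR, and DESeq2 called 12%, 7.75%, 5.29% and 12.4% of the genes to which it gave an adjusted p. Counts by these looser rules are read beside those shares. Comparisons against immature wells share those sums and are not independent of each other.

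**Figure D2:**
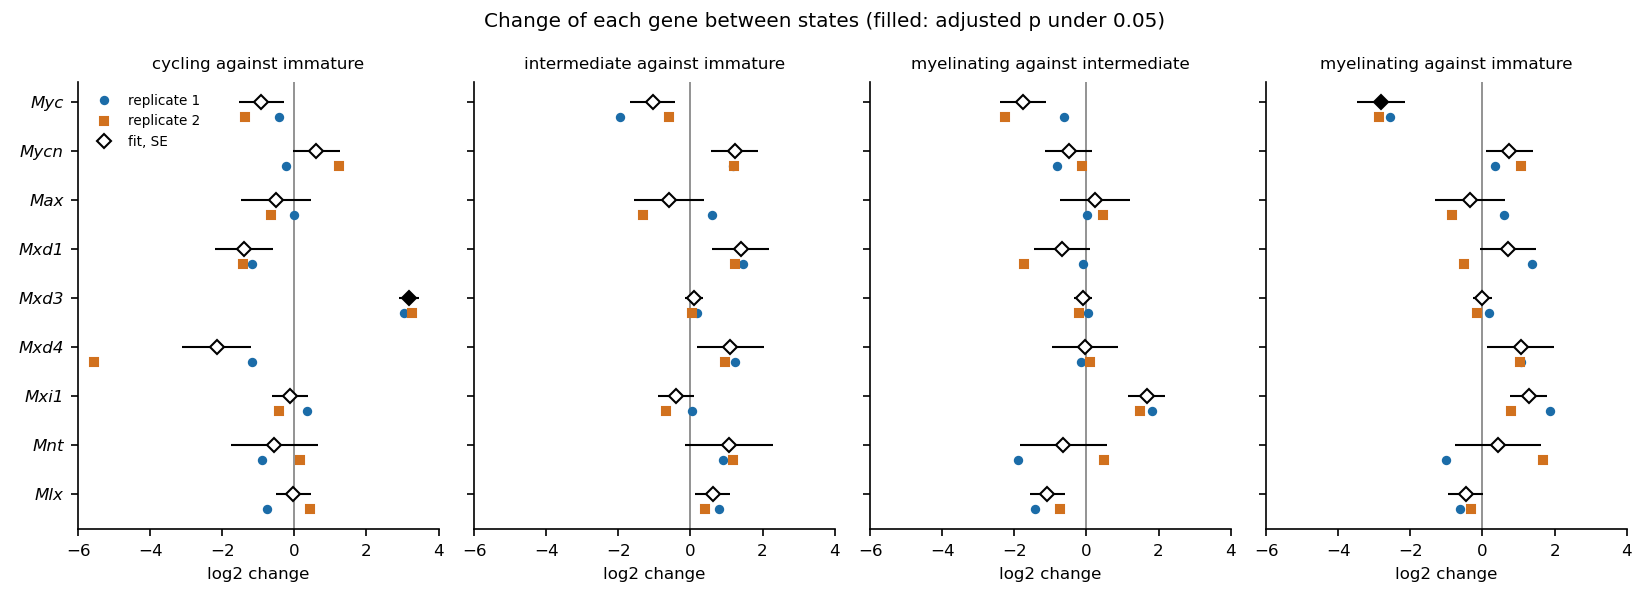
Fitted log2 change (diamond, with its SE as a line) of 9 members in the 4 comparisons, and the change in each replicate (small points). Filled diamonds are the changes called by edgeR, Mxd3 at 3.17 in cycling against immature wells and Myc at -2.81 in myelinating against immature wells.

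Mxd3 is the Mxd repressor known from dividing progenitors. In the cycling wells replicate 1 had 470 CPM and replicate 2 had 702, against 60.9 and 78.8 CPM in immature wells, 61.2 and 75 in intermediate wells and 53.1 and 54.3 in myelinating wells. The cycling sums lay above the 6 others with no overlap, and the 6 others lay within 53.1 to 78.8 CPM. By edgeR the change from immature to cycling wells was 9.03-fold (log2 change 3.17, SE 0.275, adjusted p = 0.00105), with 3.03 and 3.26 in the 2 replicates. It was called under all 11 alternative settings, at adjusted p-values of 8.65e-28 to 0.00927. The median cycling well had 270 CPM in replicate 1 and 610 in replicate 2, the median of the other states was 46.6 to 72.8, and the lowest cycling well was at 0 and 27.4 CPM respectively. The highest cycling well was at 2060 and 2284 CPM, and the highest immature well of replicate 2 was at 2248 CPM. In the other sums that were not cycling the highest well was at 161 to 337 CPM. No single well carried the change, since the well with the most Mxd3 reads held 17.9% and 14% of the cycling reads.

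The Mxd3 level outside cycling wells has a limit set by its place in the genome. Mxd3 lies on the minus strand of chromosome 13 (GRCm38, 55325168 to 55329823) and its 3′ end overlaps that of Prelid1, a mitochondrial lipid transfer gene on the plus strand (55320500 to 55325272), by 105 bases. Without strand information, reads there cannot be told apart. In immature, intermediate and myelinating wells there were 7.62 to 10.5 Mxd3 reads per 100 Prelid1 reads, and of the 64 to 113 wells with an Mxd3 read per state and replicate at most 1 had none of Prelid1. Over the wells of a state and replicate, Spearman's rho of Mxd3 with Prelid1 was 0.763 to 0.875 in these 3 states, as a description of wells that share a library preparation. In cycling wells there were 54.8 and 103 Mxd3 reads per 100 Prelid1 reads and rho was 0.253 and 0.325. Prelid1 itself was at 857 and 685 CPM in cycling and 793 and 747 in immature wells (edgeR log2 change 0.10, SE 0.145, adjusted p = 0.801). The Mxd3 level of 53.1 to 78.8 CPM in wells that were not cycling moved with the reads of its neighbour, and how much of it is Mxd3 RNA was not tested.

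**Figure D3:**
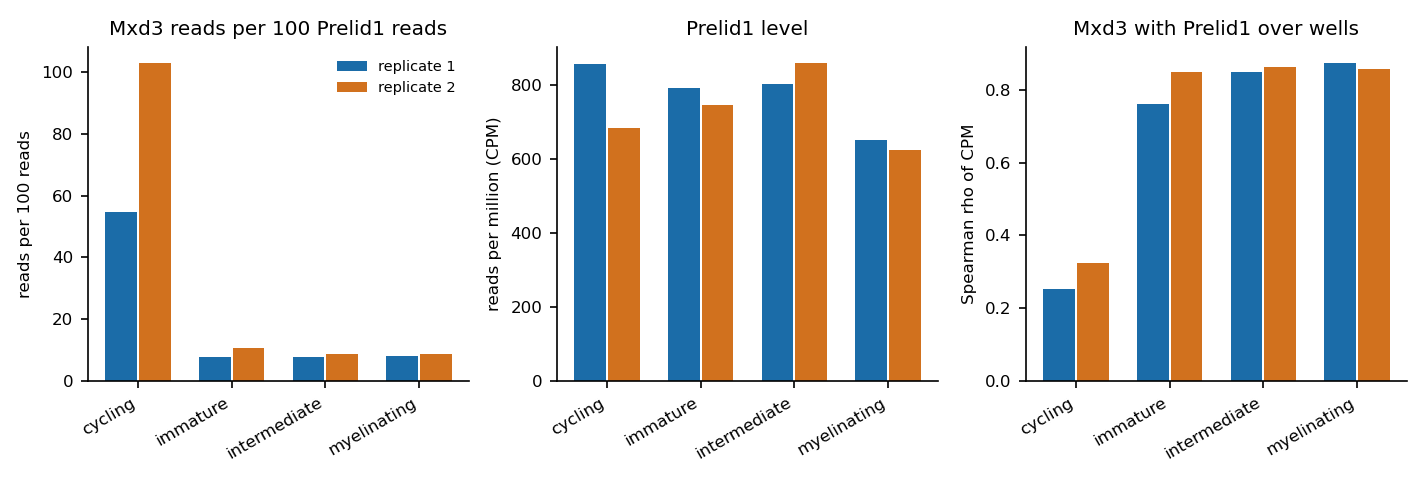
Bars per state and replicate for the reads of Mxd3 per 100 reads of Prelid1 (left), the CPM of Prelid1 (middle) and Spearman's rho of the CPM of both genes over wells (right). Mxd3 reads per 100 Prelid1 reads were 54.8 and 103 in cycling wells and 7.62 to 10.5 elsewhere, while Prelid1 stayed between 626 and 861 CPM.

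Within the cycling wells Mxd3 went with the number of cell cycle genes read. In wells with 6 to 10 of the 10 genes it was at 602 CPM (24 wells of replicate 1) and 789 CPM (22 wells of replicate 2). In wells with 3 to 5 genes it was at 84.0 and 48.4 CPM, over only 8 and 3 wells, and in wells with 0 to 2 genes at 53.4 to 68.4 CPM. Mxd4 ran the other way, at 14.2 and 2.68 CPM with 6 to 10 genes and 174 to 230 CPM with 0 to 2 genes. With 3 to 5 genes Mxd4 was at 185 CPM in replicate 1 and had no read in the 3 wells of replicate 2. These counts of genes come from the rule that set the states, so the pattern is given without a test. The median depth of wells with 6 to 10 genes (598527 and 546149 reads) lay within that of wells with 0 to 2 genes (534822 to 636209).

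**Figure D4:**
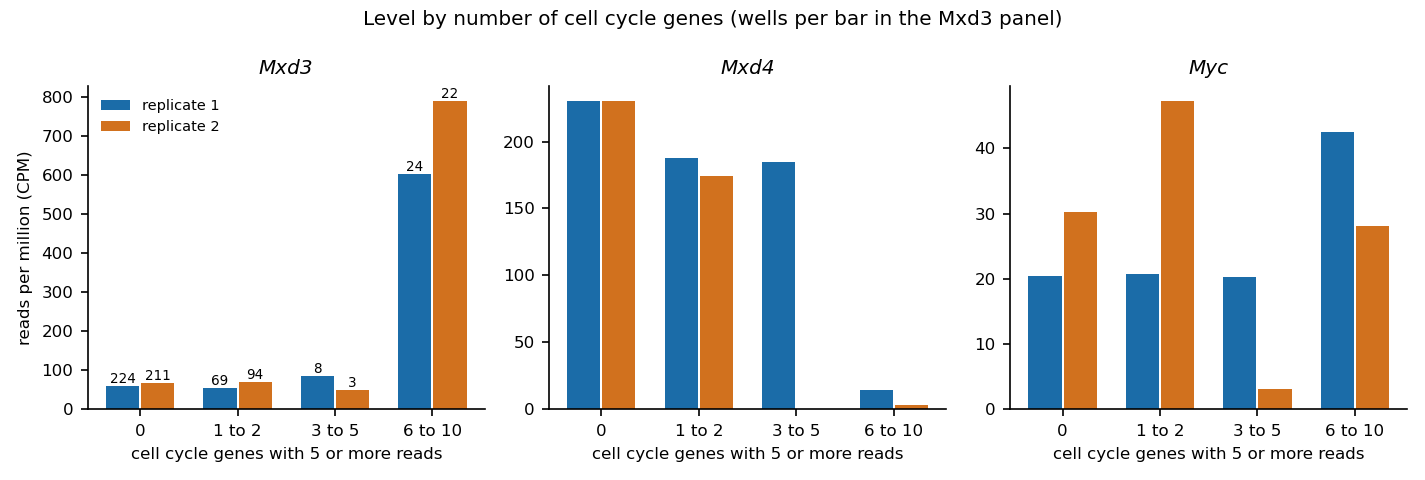
Level of Mxd3, Mxd4 and Myc in CPM (vertical axes, from 0) in wells grouped by how many of the 10 cell cycle genes had 5 or more reads, with 1 bar per replicate and the number of wells above the bars of the Mxd3 panel. Wells with 6 to 10 genes had 602 and 789 CPM of Mxd3 and 14.2 and 2.68 CPM of Mxd4, and the middle group holds only 8 and 3 wells.

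Mxd4, a repressor known from differentiating cells, had most reads of the 10 genes. It was at 57.7 and 2.37 CPM in cycling wells, 141 and 146 in immature, 296 and 263 in intermediate and 227 and 233 in myelinating wells. The cycling sums were lowest, followed by the immature, the myelinating and the intermediate sums, and the replicates of these states did not overlap. The replicates of the cycling wells were far apart, and 1 well held 41.7% of the cycling reads of replicate 1. The edgeR fit did not call the difference between cycling and immature wells (log2 change -2.16, SE 0.962, adjusted p = 0.329), with -1.19 and -5.56 in the 2 replicates. It was called in 3 of 11 alternatives, with no filter on low counts (log2 change -2.16, adjusted p = 0.00327), with 5 of 10 cell cycle genes required (-3.98, adjusted p = 0.0159) and in limma with every well weighted equally (-2.65, adjusted p = 0.00986), and the adjusted p over the 11 was 0.00327 to 0.352.

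The share of wells with an Mxd4 read was also lowest in cycling wells, but highest in myelinating ones. A read was found in 18.8% and 12% of cycling wells, 43.4% and 54.9% of immature, 64.6% and 78.6% of intermediate and 83.3% and 89.4% of myelinating wells. After thinning each well to 100000 reads the shares were 16.1% and 4.17%, 40.6% and 48.7%, 62.5% and 71.0%, and 77.4% and 82.3%, with the states in the order found without thinning. In wells with a read the median level was 243 to 327 CPM in the 3 states that were not cycling, so the states differed more in how many wells had a read than in the level of those wells. The edgeR log2 change from immature to myelinating wells was 1.06 (SE 0.928, adjusted p = 0.701), with 1.08 and 1.04 in the replicates, and was called in 1 of 11 alternatives, the limma fit with equal weights (2.64, adjusted p = 0.00626). That fit averages log2(CPM + 1) over wells, so it also follows the share of wells with a read. The mean CPM over wells was 153 and 165 in immature and 229 and 240 in myelinating wells. An antisense gene in the annotation, Gm42846, lies inside Mxd4 over 1001 bases and is not a row of the table used here, so reads of both strands are counted together.

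**Figure D5:**
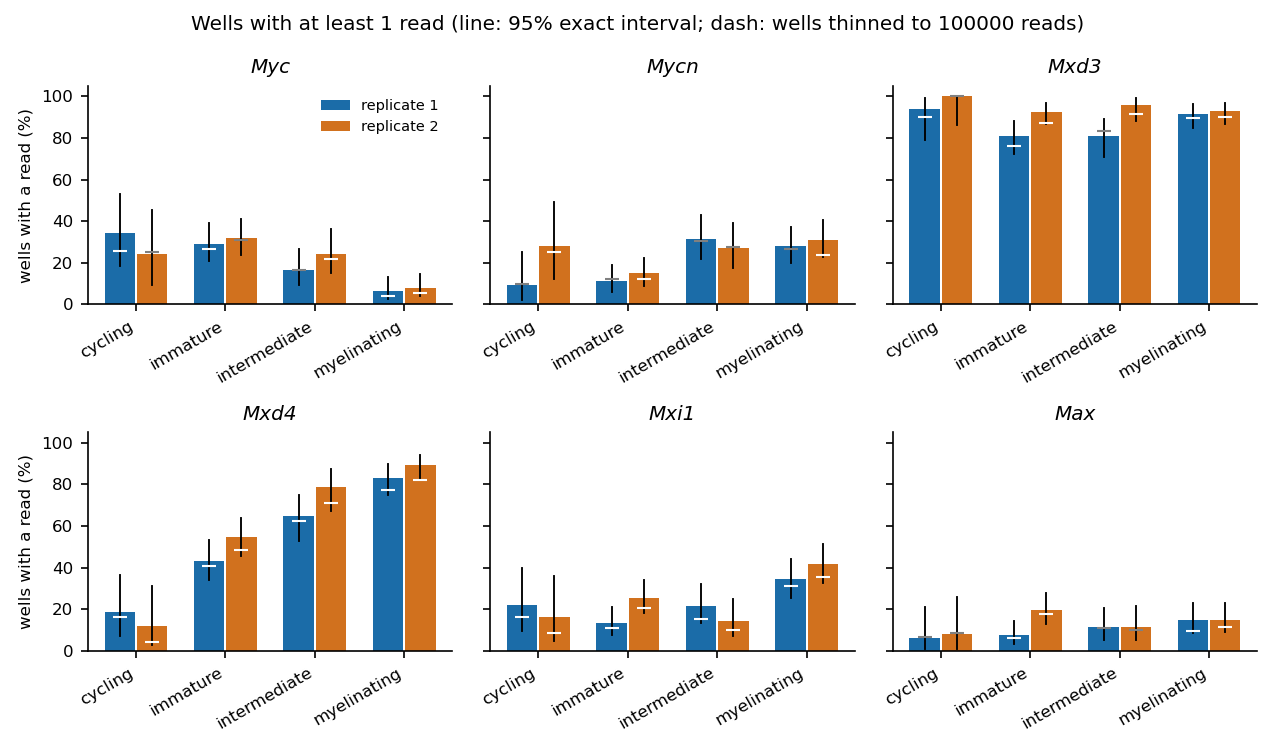
Share of wells with at least 1 read of 6 members (bars, per state and replicate) with its exact 95% interval for counting error (line), and the share after thinning to 100000 reads per well (dash). Myc was found in fewer and Mxd4 in more wells from immature to myelinating, and Mxd3 was found in 81.0% to 100% of the wells of every state.

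Myc, the main activator of the network, was highest in immature wells. It was at 53.4 and 72.0 CPM there, 36.8 and 25.1 in cycling, 11.9 and 43.8 in intermediate and 6.49 and 7.24 in myelinating wells. The myelinating sums lay below all others and the immature sums above all others. The intermediate replicates were far apart, and 1 well held 57.8% of the Myc reads of intermediate replicate 2. By edgeR Myc was 7.01-fold lower in myelinating than in immature wells (log2 change -2.81, SE 0.66, adjusted p = 0.0455), with -2.57 and -2.87 in the 2 replicates. The call lies near the threshold. An alternative chosen after seeing the data left out the well with the most Myc reads in each sum. The intermediate sums were then at 9.26 and 19.2 CPM, still apart. The log2 change from immature to myelinating wells was -3.23, with no test. The call was lost with the plate as a replicate block (-2.79, adjusted p = 0.0632), with 5 of 10 cell cycle genes required (-2.76, adjusted p = 0.0586) and with a Pmp22 limit of 20000 CPM (-2.76, adjusted p = 0.0784), and it held in the other 8 of 11 alternatives (adjusted p 0.000287 to 0.0784 over the 11). Myc was not called in cycling against immature wells (edgeR log2 change -0.92, SE 0.622, adjusted p = 0.514), intermediate against immature (-1.04, SE 0.623, adjusted p = 0.617) or myelinating against intermediate (-1.76, SE 0.635, adjusted p = 0.4).

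The share of wells with a Myc read was lowest in myelinating wells too. A read was found in 34.4% and 24% of cycling, 29.2% and 32.0% of immature, 16.5% and 24.3% of intermediate and 6.48% and 7.96% of myelinating wells, the deepest ones. After thinning to 100000 reads the immature shares were 26.7% and 30.8% and the myelinating shares 3.77% and 5.31%. In wells with a read, the median was 160 and 161 CPM in immature and 64.2 and 27.1 in myelinating wells. Even in immature wells Myc was read in a minority of cells, and the highest wells reached 641 and 670 CPM.

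Other measures were also lower in myelinating than in immature wells. Nerves were dissociated with enzymes before sorting, and Myc belongs with genes that are induced early by a stimulus, so a list of 14 immediate-early and stress genes was set beside it. Their summed level was 12045 and 12438 CPM in immature, 11864 and 8699 in cycling, 5012 and 5801 in intermediate and 5415 and 4840 in myelinating wells. In myelinating against immature wells the median log2 change of the 14 was -0.57 beside -0.04 over all genes tested. Where 2.51% of all genes were called as lower and 2.58% as higher, edgeR called 4 of the 14 as lower and none as higher. Among them Ier2, an early response regulator, was 9.33-fold lower (log2 change -3.22, SE 0.461, edgeR adjusted p = 0.00418) and Jun, an AP-1 subunit, 7.57-fold lower (-2.92, SE 0.426, edgeR adjusted p = 0.00469). The other two, named after their values were seen, were Egr1 and Zfp36. In intermediate against immature wells the median of the 14 was -1.22, beside -0.03 over all genes. Where 0.986% of all genes were called as lower, 5 of the 14 were. Of them Ier2 (-2.84, SE 0.453, edgeR adjusted p = 0.0167) and Zfp36, which destabilises messenger RNA (-1.92, SE 0.305, edgeR adjusted p = 0.0166), had the largest changes. Zfp36 was not called with a Pmp22 limit of 20000 CPM (adjusted p = 0.0701 in edgeR). Dusp1, Egr1 and Fos were the other 3, named after their values were seen. In myelinating against intermediate wells the median of the 14 was 0.08, beside 0.00 over all genes, and 9 of the 14 changes were positive. There edgeR called none of the 14, beside 0.77% of all genes, and Myc had a log2 change of -1.76 that was not called.

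Over the wells of 1 state and replicate, Spearman's rho of Myc with the summed level of these 14 genes was 0.0727 to 0.218, a weak relation in sparse reads. In immature wells at or above the median of that sum 35.8% and 37.7% had a Myc read, against 22.6% and 26.2% of those below it. The summed level of the 6 fibroblast genes given above was also lower in myelinating than in immature wells. The defining fibroblast genes Dcn, Lum and Pdgfra were at 0 to 21.5 CPM in immature and 0 to 1.62 in myelinating wells. Without the wells with 5 or more reads in at least 3 of the 6 fibroblast genes, an alternative chosen after seeing the data, Myc was at 51.0 and 75 CPM in immature and 6.56 and 7.44 in myelinating wells. The part of the immediate-early genes in the Myc result was not tested.

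Mycn, the paralogue known from embryonic progenitors, was not called in any comparison. It was at 10.8 and 23.1 CPM in cycling, 13.7 and 10.3 in immature, 28.3 and 22.8 in intermediate and 13.6 and 17.3 in myelinating wells. The intermediate sums were above the immature and myelinating ones, and the cycling replicates overlapped those of the 3 other states. The change from immature to intermediate wells was 1.23 on the log2 scale (SE 0.658, edgeR adjusted p = 0.569), with 1.17 and 1.21 in the replicates. A Mycn read was found in 31.6% and 27.1% of intermediate and 27.8% and 31.0% of myelinating wells, against 11.3% and 14.8% of immature wells. After thinning to 100000 reads the myelinating shares were 26.4% and 23.9% and the immature shares 11.9% and 12%. The myelinating and immature levels in CPM lay close together, and no order is read from the shares.

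Mycl, the third Myc paralogue, had no read in the 57 cycling and 228 immature wells, which allows a share of wells with a read of up to 5.26% and 1.32%. It was read in 1 of 149 intermediate wells, with 156 reads, and in 5 of 221 myelinating wells. Of the 168 reads in myelinating wells of replicate 1, 88.7% came from 1 well, and replicate 2 had 1 read. No fold is given, because 2 wells hold nearly all of its reads.

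Max, the obligate partner of Myc and of the Mxd repressors, was among the lower members. It was at 5.33 and 10.8 CPM in cycling, 5.67 and 18.8 in immature, 7.93 and 6.72 in intermediate and 6.79 and 7.93 in myelinating wells, and the states overlapped. Its fitted log2 changes were -0.60 to 0.25 with SEs of 0.971 to 0.974, and none was called. A Max read was found in 6.25% to 19.7% of wells. Mnt, a broadly expressed repressor, was lower still, at 3.17 and 2.73 CPM in cycling, 6.75 and 2.59 in immature, 11.7 and 6.05 in intermediate and 2.34 and 7.32 in myelinating wells, again with overlap. Its log2 changes were -0.64 to 1.07 with SEs of 1.2 to 1.21 and none was called.

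Mlx was at 23.3 and 57.6 CPM in cycling, 42.7 and 46.4 in immature, 67.0 and 57.2 in intermediate and 20.9 and 28.4 in myelinating wells. The myelinating sums lay below the intermediate ones in both replicates, by -1.43 and -0.74 on the log2 scale, and edgeR did not call the change (-1.09, SE 0.485, unadjusted p = 0.0522, adjusted p = 0.538). The last 385 bases of Mlx overlap Psmc3ip, a recombination gene on the other strand, which was at 44.9 and 53.6 CPM in cycling and 11.2 to 28.5 CPM in the other sums. Reads in that stretch cannot be told apart, and the Mlx level in cycling wells is uncertain for that reason.

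Mxd1, the repressor first found with Max in differentiating cells, was at 4.12 and 3.66 CPM in cycling, 10.5 and 11.6 in immature, 26.9 and 25.9 in intermediate and 21.4 and 6.16 in myelinating wells. The first 3 states were ordered without overlap and with close replicates, while the myelinating replicates spanned them. No change was called, neither from immature to intermediate wells (log2 change 1.40, SE 0.789, edgeR adjusted p = 0.593) nor from immature to cycling wells (-1.40, SE 0.794, edgeR adjusted p = 0.434). Reads came from few wells, 3.12% to 21.4% per state and replicate, and in cycling wells of replicate 1 from a single well.

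Mxi1, a Mxd repressor that takes part in responses to low oxygen, was at 20.1 and 22.1 CPM in cycling, 16.8 and 32.7 in immature, 15.6 and 18.6 in intermediate and 47.8 and 44.3 in myelinating wells. The myelinating sums lay above the 6 others with no overlap. The edgeR log2 change from intermediate to myelinating wells was 1.67 (SE 0.509, unadjusted p = 0.00965, adjusted p = 0.272), with 1.81 and 1.49 in the replicates, and DESeq2 called it (1.69, adjusted p = 0.0112). From immature to myelinating wells it was 1.28 in edgeR (SE 0.503, unadjusted p = 0.0324, adjusted p = 0.248) and 1.31 in DESeq2 (adjusted p = 0.0493). DESeq2 was the only 1 of 11 alternatives that called either change, and the adjusted p over the 11 was 0.0112 to 0.422 and 0.0493 to 0.389. A read was found in 34.3% and 41.6% of myelinating wells and in 13.2% to 25.4% of wells elsewhere. Gm10197, which overlaps Mxi1 on the other strand by 201 bases, was at 1.19 to 6.36 CPM.

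Wells were also read for which members they held together. At least 1 of the 3 Myc paralogues was read in 36.1% to 44.0% of the wells of every state and replicate, including 36.1% and 37.2% of myelinating wells, where Myc alone was read in 6.48% and 7.96%. At least 1 of the 4 Mxd genes was read in 91.5% to 100% of wells. Mxd3 alone was read in 81.0% to 100%, and outside cycling wells its reads moved with those of Prelid1. How far that share depends on the overlap of Mxd3 with Prelid1 was not tested. Myc and Max were read in the same well in 1 to 7 wells per state and replicate. In immature wells with a Myc read, 38.7% and 51.3% also had an Mxd4 read, against 45.3% and 56.6% of those without one, as a description of wells that differ in depth.

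The partners and helpers of the network were read from lists of genes with known roles. Of 9 relatives and further partners, 8 were tested. Mlxip, also called MondoA, the sugar-responsive partner of Mlx, was at 160 and 213 CPM in immature, 296 and 246 in cycling, 49.3 and 58.1 in intermediate and 38.9 and 25.9 in myelinating wells. It fell from immature to intermediate wells (log2 change -1.66, SE 0.285, edgeR adjusted p = 0.0236) and from immature to myelinating wells (-2.14, SE 0.289, edgeR adjusted p = 0.0031), and each change was called in all 11 alternatives. None of the other 7 was called in any comparison, where 0.77% to 5.1% of all genes were called, and the median log2 change of the 8 was -0.24 to 0.33. Of 14 Myc cofactors, such as the acetylase subunit Trrap, and 10 Mxd corepressors, such as Sin3a, edgeR called none in any comparison. The counts that follow keep the order of comparisons used for all genes. Of the 14 cofactors 4, 1, 1 and 3 had an unadjusted p under 0.05 and DESeq2 called 3, 0, 1 and 1. Of the 10 corepressors 5, 1, 3 and 5 had such a p and DESeq2 called 5, 0, 0 and 4. Over all genes 15.3%, 10.9%, 9.32% and 16.3% had such a p, and DESeq2 called 12%, 7.75%, 5.29% and 12.4%. The corepressors had a median log2 change of 0.54 in cycling against immature wells, beside -0.13 over all genes.

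Of 10 genes that set the stability of Myc protein, edgeR called 1 in any comparison, where it called 0.77% to 5.1% of all genes. In the same order of the 4 comparisons, 3, 4, 1 and 1 of the 10 had an unadjusted p under 0.05. Over all genes these shares were 15.3%, 10.9%, 9.32% and 16.3%. DESeq2 called 3, 1, 1 and 0 of them, beside 12%, 7.75%, 5.29% and 12.4% of all genes. Aurka, a mitotic kinase that also stabilises Mycn, was higher in cycling wells, at 134 and 262 CPM, than in immature wells, where replicate 1 had 1 read and replicate 2 had 51 reads in a single well (edgeR adjusted p = 0.026). Its fitted fold is not given, since it rests on so few immature reads.

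Known targets of Myc were read from lists of nucleolar and of growth genes. Of 26 nucleolar genes that build ribosomes, such as Ncl and Npm1, edgeR called none in any comparison. Over all genes it called 0.77% to 5.1%. In myelinating against immature wells 8 of the 26 had an unadjusted p under 0.05 (16.3% of all genes), DESeq2 called 3 (12.4% of all genes), and 25 of 26 log2 changes were negative with a median of -0.66, beside -0.04 over all genes. The list summed to 2502 and 2559 CPM in immature, 2473 and 2288 in cycling, 2323 and 2094 in intermediate and 1379 and 1311 in myelinating wells. Myelin transcripts take a large share of the reads of myelinating wells, and the fitted changes correct for that only through the scaling of the sums. In cycling against immature wells the median was -0.11. There 2 of 26 had an unadjusted p under 0.05 (15.3% of all genes) and DESeq2 called 2 (12% of all genes).

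Of 26 growth and metabolism targets, 1 was called as higher in cycling wells, Ran, which carries cargo through nuclear pores, at 1124 and 1406 CPM against 370 and 476 in immature wells (log2 change 1.69, SE 0.187, edgeR adjusted p = 0.00359). Between myelinating and immature wells 3 of the 26 were lower in the former and 1 was higher, where 5.1% of all genes were called, with a median log2 change of -0.45. There 12 of the 26 had an unadjusted p under 0.05 (16.3% of all genes) and DESeq2 called 9 (12.4% of all genes). In cycling against immature wells these counts were 8 (15.3% of all genes) and 5 (12% of all genes), and edgeR called 1.21% of all genes as higher. Nme1, a nucleoside diphosphate kinase, fell from 352 and 308 to 131 and 149 CPM (-0.85, SE 0.171, edgeR adjusted p = 0.0224), and Eif4a1, a helicase of translation initiation, from 627 and 649 to 293 and 258 (-0.83, SE 0.173, edgeR adjusted p = 0.0265). Cdk4, the third and named after its values were seen, was at 785 and 822 CPM in immature and 371 and 377 in myelinating wells. The gene that rose was Slc3a2, a subunit of amino acid carriers, from 341 and 279 to 743 and 638 CPM (1.54, SE 0.19, edgeR adjusted p = 0.00181). Slc3a2 was also the 1 gene of the list called in intermediate against immature wells (0.91, SE 0.187, edgeR adjusted p = 0.0477), where 1.95% of all genes were called. Some of these calls lie near the threshold. Nme1 was not called with wells weighted equally (limma adjusted p = 0.137), nor Eif4a1 with a Pmp22 limit of 20000 CPM (edgeR adjusted p = 0.0641). The intermediate call of Slc3a2 was lost with that limit and with at least 2500 detected genes required (edgeR adjusted p = 0.0843).

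The targets of Mlx and the Mondo proteins went both ways. Of 6 genes 5 were tested. In myelinating against immature wells edgeR called 1 as higher and 1 as lower, where 5.1% of all genes were called. The median log2 change of the 5 was 1.76, beside -0.04 over all genes. All 5 had an unadjusted p under 0.05 there (16.3% of all genes) and were called by DESeq2 (12.4% of all genes). Fasn, which makes fatty acids, was at 33.5 and 72.4 CPM in immature and 133 and 164 in myelinating wells (1.87, SE 0.373, edgeR adjusted p = 0.022). Txnip, the best known target of Mlxip and a brake on glucose uptake, was at 62.1 and 91.4 CPM in immature and 13.4 and 8.32 in myelinating wells (-2.44, SE 0.43, edgeR adjusted p = 0.0123). Txnip was at 28.8 and 43.6 CPM in intermediate wells, between the others, and in cycling wells at 73.1 and 85.3.

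Genes that Myc is known to repress through Zbtb17 include several inhibitors of the cell cycle, and members of this list were called in every comparison. Over all genes tested 0.77% to 5.1% were called in the 4 comparisons. Of the 7, 3 rose from immature to intermediate wells and none fell, where 1.95% of all genes were called. The median log2 change of the 7 was 1.60, beside -0.03 over all genes. Cdkn1a, the inhibitor p21, rose from 224 and 184 CPM in immature to 1917 and 1761 in intermediate (3.31, SE 0.318, edgeR adjusted p = 0.0013) and 2564 and 2364 in myelinating wells (3.98, SE 0.328, edgeR adjusted p = 0.000221). Cdkn1b, the inhibitor p27, was at 37.3 and 37.6 CPM in immature and 214 and 118 in intermediate wells (2.29, SE 0.404, edgeR adjusted p = 0.0265). Ndrg1, a gene of differentiated Schwann cells, rose from 378 and 366 in immature to 1327 and 1445 CPM in myelinating wells (2.28, SE 0.133, edgeR adjusted p = 3.83e-05) and was lower in cycling than in immature wells (-1.33, SE 0.129, edgeR adjusted p = 0.00167).

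Cdkn1c, the inhibitor p57 and a marker of pro-myelinating cells, differed from the 3 genes above in myelinating wells. It was at 251 and 208 CPM in cycling, 1908 and 861 in immature, 3078 and 2005 in intermediate and 91.2 and 49.2 in myelinating wells. It was lower in cycling than in immature wells (-2.49, SE 0.421, edgeR adjusted p = 0.0206) and in myelinating than in intermediate wells (-4.94, SE 0.471, edgeR adjusted p = 0.00217). From immature to myelinating wells 3 of the 7 were higher and Cdkn1c alone was lower (-3.92, SE 0.448, edgeR adjusted p = 0.00125), where 5.1% of all genes were called. In cycling against immature wells 2 of the 7 were called, both as lower, where 2.46% of all genes were called. The median of the 7 was -1.33, or -0.75 with the 2 genes that had no read in a state set at the bound that 3 reads allow, beside -0.13 over all genes. With wells weighted equally, limma called neither Cdkn1c (adjusted p = 0.525) nor Ndrg1 (adjusted p = 0.503) in that comparison.

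Over the 8 sums the genes most like a member in log2(CPM + 1) were sought among 6301 genes, for the 3 members whose state means ranged most. Mxd3 was most like H2afx, a histone of DNA repair (r = 0.998), Rad54l, a recombination gene (0.993), and Gm10184 (0.993), and 91 genes reached r of 0.95. Mxd4 was most like S100a1, a calcium-binding protein (0.992), Ypel3 (0.988) and Cyhr1 (0.986), with 57 genes at 0.95. Myc had fewer close genes, 5 at 0.95, led by Dpm3 (0.967), Ccnl1, a cyclin of RNA splicing (0.963), and Napa, a membrane fusion factor (0.955). The 8 points share 4 states and 2 plates, and these values are descriptions.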

How the data were processed

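Single Schwann cells of 2 plates (768 wells) were measured by Smart-Seq2. The authors deposited 1 table of raw counts, with a row per gene and a column per well. The submitters' processing notes name STAR 2.6.1c, featureCounts and GRCm38.p5, whereas the methods of the study name a human build for the same alignment, which the mouse gene identifiers do not match. Of 25700 identifiers 25664 matched GENCODE vM21 (GRCm38), which supplied names and coordinates, and the other 36 held 0.0821% of reads. No 2 wells had identical counts. No doublet caller was run.

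Members and gene lists were chosen with earlier results of these data known. Raw counts were summed per plate and state. Wells under 1500 genes (the minimum of the study) and corner wells were left out. The 8 sums were fitted with edgeR 4.0.16 (filterByExpr, TMM, 1 spread for 4 states, common dispersion 0.713, 4 residual degrees of freedom) in R 4.3.3, and p-values were adjusted over 13892 genes after the 12 genes that set the states were removed. Replicate log2 changes used scaled CPM with 0.5 CPM added. DESeq2 1.42.0 and limma 3.58.1 were alternatives, as were RLE scaling, no filter, a plate term, 2500 detected genes, thinning to 100000 reads, 5 of 10 cell cycle genes, other Ncmap and Pmp22 limits, corner wells kept, equal weights for wells (limma) and leaving out a plate. The limma fit used the mean of log2(CPM + 1) over wells, so its log2 changes also follow the share of wells with a read. The scripts were tested on simulated data. The plate pairs the sums, since cells of 1 plate share their animals. The correlations of plate deviations between states were -0.00766 to 0.13 over 1975 genes. Every member was named, and from each list, per comparison, the 2 called genes with the largest change in each direction among those of at least 20 CPM that moved alike in both plates. Lengths for RPKM are the union of exons. CPM levels are raw, and fold changes are TMM-scaled (factors 0.851 to 1.12). Intervals (95%, exact) and limits (3 counts) cover counting error only, because reads without molecular identifiers are not independent molecules. The promoter of the Cre transgene is not reported here.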

Additional observations from a re-analysis of the deposited data

Results flagged for a closer look

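Reads of the members also occurred in wells that no comparison used. The 8 corner wells, 4 per plate, held 19 reads of the 10 members, 11 of Max in 1 well, 7 of Mlx in 3 wells and 1 of Mxd4. The 105 other wells with fewer than 1500 detected genes held 1208 reads of the members, of which 980 were of Mxi1 in 4 wells, 129 of Mxd3 in 8 and 66 of Myc in 2. Both groups were set apart because they hold signal outside the main measurement, and their part in any result was not tested.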

How the results depend on the processing

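With 2 plates and 4 residual degrees of freedom the SE of a member's log2 change was 0.253 to 1.21, and a change that was not called is not shown to be absent. Mxd3 in cycling against immature wells was called under all 11 alternatives. The number of members called in that comparison was 2, by the addition of Mxd4, with no filter on low counts, with 5 of 10 cell cycle genes and with wells weighted equally. In myelinating against intermediate wells DESeq2 called 1 member, Mxi1. In myelinating against immature wells it was 2 in DESeq2 (Myc and Mxi1) and with equal weights (Myc and Mxd4), and 0 with the plate as a replicate block, with 5 of 10 cell cycle genes and with a Pmp22 limit of 20000 CPM. The replicate block (plate as a term) changed no other call of a member.

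Over all genes, in the order cycling against immature, intermediate against immature, myelinating against intermediate and myelinating against immature, 342, 271, 107 and 708 genes were called. The counts were 1589, 1030, 720 and 1694 in DESeq2, 838, 682, 420 and 1187 with no filter, and 1086, 433, 476 and 1718 with equal weights. With wells thinned to 100000 reads they were 543 in the first and 298 in the third comparison. With equal weights, a fit on mean log2(CPM + 1) over wells, 93.4%, 61.2%, 85.9% and 77.5% of the calls were higher, against 49.1%, 49.4%, 44.9% and 50.7% in edgeR. The median log2 change of all genes in the first comparison was -0.13 in edgeR, -0.05 with RLE scaling, 0.00 in DESeq2 and 0.08 with equal weights.

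Of 504 values under an alternative 43 had the opposite sign, all of changes that were not called. In cycling against immature wells these were Mlx (0.05 in DESeq2, 0.05 with RLE scaling, 0.04 with 2500 detected genes, 0.15 with 5 of 10 cell cycle genes, 0.02 with an Ncmap limit of 30 CPM, 0.58 with equal weights), Mxi1 (0.24 with 5 of 10 genes) and Mnt (0.77 thinned, 0.10 with equal weights). In intermediate against immature wells they were Mxd3 (-0.01 thinned, -0.05 with equal weights), Mxi1 (0.08 thinned) and Mnt (-0.45 with the Ncmap limit). In myelinating against intermediate wells they were Max (-0.15 with the Pmp22 limit), Mxd3 (0.02 with equal weights), Mxd4 (0.03 with 2500 genes, 0.09 thinned, 0.15 with the Pmp22 limit, 0.72 with equal weights) and Mnt (0.16 with the Ncmap limit, 0.12 with equal weights). In myelinating against immature wells they were Mxd3 (-0.10 thinned, -0.01 with 5 of 10 genes, -0.00 with the Ncmap limit, -0.03 with equal weights), Mnt (-0.29 with the Ncmap limit) and Mlx (0.10 with equal weights). The other 16 came from leaving out 1 plate or, chosen after seeing the data, the well with the most reads. The cause was not tested.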
